A study of Danio rerio with 7 samples.

Results

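The nuclear genes cox7a1, cox6a2, cox7a2a, cox6a1 and cox5ba encode subunits of cytochrome c oxidase. They were taken by RefSeq accession from the non-control probes of the array, and they account for 5 of the 8845 named genes that were tested. The muscle isoform genes cox7a1 and cox6a2 are set here against cox7a2a, cox6a1 and cox5ba. Each gene had 1 probe except cox7a2a, which had 2, giving 6 of the 43603 distinct probes, and all 6 were among the 22705 tested. The 5 genes were picked with their differences between these fish already known, so those differences are described and not tested.

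The fish were 7 adult zebrafish (Danio rerio) of a hybrid strain, a cross of AB with an unknown strain, and were full siblings. They were 4 females (4, 7, 8 and 9) and 3 males (5, 8 and 9). RNA from a homogenate of each whole animal was labelled with Cy5 and hybridised on 1 array against Cy3-labelled RNA of a common reference, also from whole adults of the hybrid strain. Per the series design, the fish served to relate gene expression to copy number variants. Ages beyond adulthood are not given in the sources used here.

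Cytochrome c oxidase, or complex IV, is the last enzyme of the mitochondrial respiratory chain and passes electrons from cytochrome c to oxygen. Its catalytic core is encoded by mitochondrial DNA, while nuclear genes encode the surrounding subunits. In mammals COX6A and COX7A exist as a form of heart and skeletal muscle (COX6A2, COX7A1) and a form of liver and most other tissues (COX6A1, COX7A2), and COX5B is a subunit on the matrix side that binds zinc.

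The library labelled male 5 went against its label. For zp2.1 and zp3b, genes of the egg coat, it had log2 ratios of -0.09 and 0.60, inside the ranges of the 4 females, against -5.63 and -5.17 in male 8 and -4.14 and -4.82 in male 9. Every difference of the isoform genes is therefore given without that library, as 4 females minus males 8 and 9, and again with it. The arrays were scanned in 3 sessions. Females 7 and 9 and male 9 were scanned in session 1, male 8 alone in session 2, and females 4 and 8 and the library labelled male 5 in session 3. Between 29.7% and 65.2% of probes were well above background in Cy5, and the 3 arrays of session 3 were the lowest. The median SD of repeat spots of one probe ran from 0.07 to 0.14 on the log2 scale.

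Both muscle isoforms were higher in males 8 and 9 than in every female. The cox7a1 log2 ratio (fish over reference) was 2.34, 1.43, 0.30 and 1.91 in females 4, 7, 8 and 9, 4.19 and 3.86 in males 8 and 9, and -0.30 for the library labelled male 5. The 2 males thus stood above all 4 females, and the library labelled male 5 stood below them. The females averaged 1.49 ± 0.88 (SD, n = 4) and males 8 and 9 averaged 4.03, a log2 difference of -2.53 ± 0.54 (female minus male, SE of the limma fit), or 5.78-fold more in the males. The gap between the highest female and the lower of these males was wider than the SD of the females.

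Cox6a2, the muscle partner of cox6a1, ran in parallel. Its log2 ratio was 2.81, 1.60, 0.86 and 2.21 in females 4, 7, 8 and 9, 4.46 and 3.97 in males 8 and 9, and 0.13 for the library labelled male 5. The groups again did not overlap once that library was left out. The females averaged 1.87 ± 0.84 (SD, n = 4) and males 8 and 9 averaged 4.21, a difference of -2.34 ± 0.52 (SE), or 5.07-fold more in the males. The fish stood in the same order for both genes, with male 8 highest, then male 9, female 4, female 9, female 7, female 8 and male 5 (Spearman's rho 1, Pearson's r 0.997 over 7 fish, and 0.993 without male 8 and male 5, as a description). The difference of the 2 log2 ratios, cox7a1 minus cox6a2, stayed between -0.56 and -0.11 in the 7 fish. With 1 array per fish, neighbours in that order cannot be separated by a spread within a fish.

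**Figure D1:**
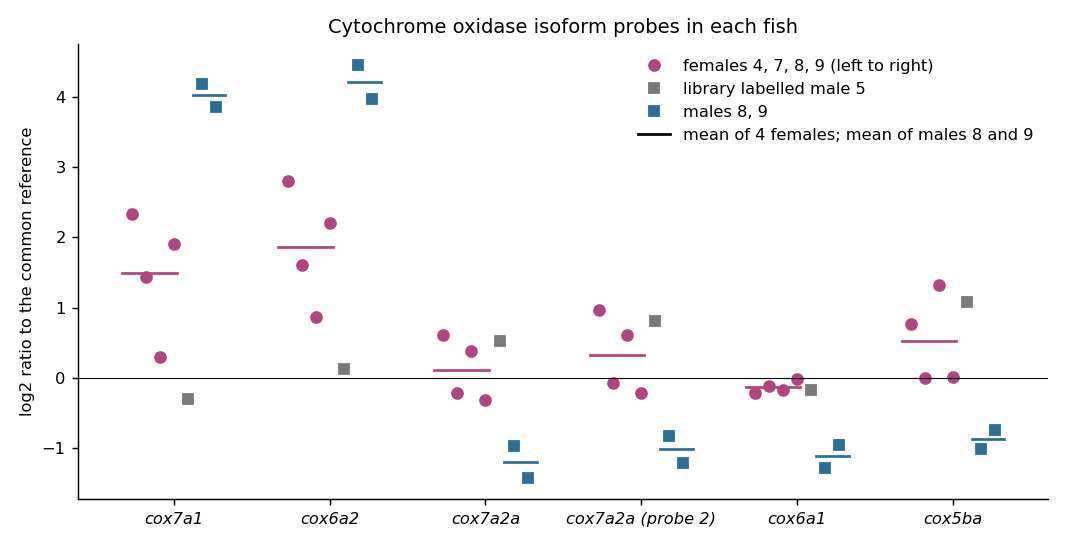
Log2 ratio to the common reference (y axis) of the 6 isoform probes (x axis) in each of the 7 fish. Points are single fish, pink lines the mean of the 4 females and blue lines the mean of males 8 and 9. Males 8 and 9 lie above all females for cox7a1 and cox6a2 and below all females for cox7a2a, cox6a1 and cox5ba, and the library labelled male 5 (grey) is below the females for the muscle isoforms and within their range for the others.

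The other genes, cox7a2a, cox6a1 and cox5ba, lay the other way. Cox7a2a, the partner of cox7a1, had a log2 ratio of 0.61, -0.22, 0.38 and -0.32 in females 4, 7, 8 and 9, -0.97 and -1.43 in males 8 and 9, and 0.52 for the library labelled male 5. Males 8 and 9 were below every female, and the library labelled male 5 was within the females' range. The females averaged 0.11 ± 0.45 (SD, n = 4) and males 8 and 9 averaged -1.2, a difference of 1.31 ± 0.31 (SE), or 2.48-fold more in the females. The second cox7a2a probe gave 1.34 ± 0.37 (SE), with females averaging 0.32 ± 0.56 (SD, n = 4) and males 8 and 9 averaging -1.02, so both probes of the gene showed the same direction and nearly the same size.

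Cox6a1 varied least among the females. Its log2 ratio was -0.22, -0.12, -0.17 and -0.01 in females 4, 7, 8 and 9, -1.28 and -0.96 in males 8 and 9, and -0.18 for the library labelled male 5. All females and the library labelled male 5 fell within 0.21 of each other, with males 8 and 9 well below. The females averaged -0.13 ± 0.09 (SD, n = 4) and males 8 and 9 averaged -1.12, a difference of 0.99 ± 0.16 (SE), or 1.99-fold more in the females.

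Cox5ba had a log2 ratio of 0.77, 0.00, 1.32 and 0.01 in females 4, 7, 8 and 9, -1.01 and -0.74 in males 8 and 9, and 1.08 for the library labelled male 5. Again males 8 and 9 were below every female and the library labelled male 5 was inside the females' range. The females averaged 0.52 ± 0.64 (SD, n = 4) and males 8 and 9 averaged -0.88, a difference of 1.40 ± 0.40 (SE), or 2.64-fold more in the females.

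In all, 2 of the 5 genes had every female below males 8 and 9, where 22.5% of all genes did, and 3 had every female above them, where 30.8% of all genes did. The genes were picked on this contrast, so nothing is read from these counts. With the library labelled male 5 counted as a male, 0 of the 5 genes separated the sexes, against 1.39% of genes with every female below the 3 males and 2.34% with every female above. The differences over all 7 fish were then -1.09 ± 1.12 for cox7a1, -0.98 ± 1.06 for cox6a2, 0.74 ± 0.49 for cox7a2a, 0.68 ± 0.26 for cox6a1 and 0.75 ± 0.58 for cox5ba (female minus male, SE). Placing that library among the males thus shrank each difference, and for both muscle isoforms it left an SE larger than the difference.

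The scan session moved with some of these values. In session 3, cox7a2a was at 0.61, 0.38 and 0.52 and cox5ba at 0.77, 1.32 and 1.08, while females 7 and 9 of session 1 were at -0.22 and -0.32 for cox7a2a and at 0.00 and 0.01 for cox5ba. For cox6a1 the 3 fish of session 3 (-0.22, -0.17 and -0.18) were close to females 7 and 9 (-0.12 and -0.01). The muscle isoforms showed no such split, since female 4 of session 3 was the highest female and female 8 of the same session the lowest. Within session 1, females 7 and 9 minus male 9 gave -2.19 for cox7a1, -2.06 for cox6a2, 1.16 for cox7a2a, 0.90 for cox6a1 and 0.75 for cox5ba, so every direction held there, with the cox5ba difference only a little larger than its SD of 0.64 among the females. The part of the session in the remaining differences was not tested. Without male 5, session 3 holds only females and session 2 holds only male 8. A block on the session then compares females 7 and 9 with male 9. Results below with the session blocked and male 5 left out thus rest on male 9 as the only male. Within session 3, females 4 and 8 minus the library labelled male 5 gave 1.62, 1.70, -0.03, -0.01 and -0.04 in the same gene order.

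These probes passed the signal flags, though a few readings were dim. All 6 probes were well above background in both channels on all 7 arrays, and none was saturated. The dimmest reading was cox7a1 in the library labelled male 5, where the Cy5 median was 2.72 times the local background, followed by 4.24 times in female 8, against 35.2 times in female 7. The reference signal for cox7a1 was between 15.6 and 18.0 times background on every array but that of male 8, where it was 7.70 times. Before normalization, the Cy5 signal of cox7a1 in session 1 was 23.3 times background in male 9. It was 35.2 and 27.5 times in females 7 and 9. In the same 3 fish, cox6a2 was at 48, 93.8 and 62.2 times, and cox6a1 at 8.91, 151 and 73.1 times. Male 8 was at 29.8 times for cox7a1 and 78.1 times for cox6a2.

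The single genes depended on the normalization. With arrays centred on their median in place of loess, the differences between females and males 8 and 9 were -1.11 for cox7a1, -1.02 for cox6a2, 2.51 for cox7a2a, 2.31 for cox6a1 and 2.44 for cox5ba. Each kept its direction, the muscle isoforms with less than their loess difference and the others with more. The SD within the groups was then 1.03 for cox7a1 and 1.02 for cox6a2, about as large as their differences. For cox7a2a, cox6a1 and cox5ba it was 0.76, 0.84 and 0.58. Taking the difference between partner isoforms within a fish removes any shift that an array gives both probes alike. It compares 2 ratios to the same reference and sets no probe's brightness against another's. Cox7a1 minus cox7a2a was 1.74, 1.65, -0.08 and 2.22 in females 4, 7, 8 and 9, 5.16 and 5.29 in males 8 and 9, and -0.82 for the library labelled male 5. Males 8 and 9 exceeded every female, and the library labelled male 5 was the lowest fish. The females averaged 1.38 ± 1.01 (SD, n = 4) and males 8 and 9 averaged 5.22, a difference of -3.84, or a 14.3-fold change of the isoform ratio. With the second cox7a2a probe it was -3.87.

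Cox6a2 minus cox6a1 was 3.03, 1.72, 1.02 and 2.23 in females 4, 7, 8 and 9, 5.74 and 4.93 in males 8 and 9, and 0.31 for the library labelled male 5. The same 2 males stood highest and the same library lowest. The females averaged 2.0 ± 0.85 (SD, n = 4) and males 8 and 9 averaged 5.33, a difference of -3.34, or 10.1-fold in the isoform ratio. Within session 1 these differences were -3.35 for the COX7A isoforms and -2.96 for the COX6A isoforms. Within session 3, females 4 and 8 minus the library labelled male 5 gave 1.65 and 1.71. Over all 7 fish they were -1.83 and -1.66, with SDs of 3.49 and 2.93 among the 3 males.

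**Figure D2:**
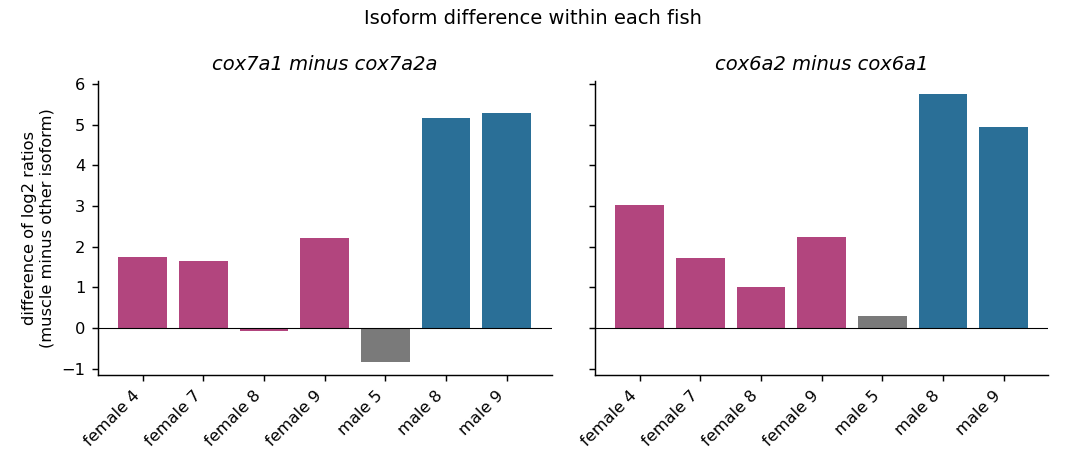
Difference between the log2 ratios of the muscle isoform and its partner (y axis) in each fish (x axis), for cox7a1 and cox7a2a on the left and cox6a2 and cox6a1 on the right. Bars are single fish, so there are no error bars. Males 8 and 9 lie between 4.93 and 5.74, the 4 females between -0.08 and 3.03, and the library labelled male 5 at -0.82 and 0.31.

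The 4 sisters differed in the muscle isoforms by as much as 2.04 log2 units for cox7a1 and 1.95 for cox6a2. Their SDs of 0.88 and 0.84 were larger than those of 96.4% and 95.7% of 8841 genes, whose median SD among the females was 0.26. Cox5ba (90.4%) and cox7a2a (78.3%) also spread more than most genes, and cox6a1 spread less than most, with 7.18% of genes below it.

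Some other muscle genes were also higher in males 8 and 9. The gene lists here and below were chosen with earlier results of these data known. Their counts beside the shares of all genes are therefore a description. Of 23 tested genes of fast skeletal muscle, 9 were higher in males 8 and 9 and none (0) in females (limma, adjusted p under 0.05 over all probes), and of 6 slow muscle genes 4 were higher in these males and 0 in females, where 11.7% of all genes were higher in these males and 19.3% higher in females. Over all probes 25.4% passed in 1 direction or the other. With all 7 fish 0 fast and 0 slow muscle genes passed, as 0 of all probes did. The session block given next leaves male 9 as the only male compared. The other 14 fast and 2 slow muscle genes did not pass, and with the session blocked 3 fast and 3 slow ones passed. The muscle calcium pump gene atp2a1 (-3.34 ± 0.54, SE, adjusted p = 0.00768, but -1.71 and 0.221 with median centring, range 0.00374 to 0.221) and the fast troponin T gene tnnt3b (-2.12 ± 0.59, adjusted p = 0.0432, or 0.249 once scan session was blocked, and from 0.00719 to 0.504 over the alternatives, of which 3 of 14 kept the call) were higher in males 8 and 9. The creatine kinase gene ckma (-1.56 ± 0.67, adjusted p = 0.136) and the fast myosin light chain gene mylpfa (-1.66 ± 1.2, adjusted p = 0.359) did not pass. Of 7 heart genes 0 passed by limma, with 2 at an unadjusted p under 0.05, and their median stayed between 0.00 and 0.39 in the females, at 0.52 and 0.30 in males 8 and 9 and at -0.16 in the library labelled male 5. The heart differences ran from -2.0 to -0.06, all toward males 8 and 9. The cardiac actin gene actc1a, well above background on all 7 arrays, was at -2.0 ± 0.62 (SE, adjusted p = 0.0587), with a female mean of 1.38 and males 8 and 9 at 3.40 and 3.37. The cardiac myosin gene myh6 was at -0.64 and the troponin T gene tnnt2a at -0.63, while the atrial peptide gene nppa was at -0.06. Of the 7, the 5 other than actc1a and tnnt2a were well above background on only 3 to 5 arrays, which limits what they can show. These 4 heart genes were named after their values were seen.

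The median log2 ratio of the fast muscle genes ran from 0.38 to 2.24 in the females, with males 8 and 9 at 3.78 and 3.41 and the library labelled male 5 at -0.19. For the slow muscle genes the median ran from -0.40 to 0.56 in the females and was 3.13, 2.60 and -0.40 in the same 3 fish. The mean of cox7a1 and cox6a2 was 2.58, 1.51, 0.58 and 2.06 in females 4, 7, 8 and 9, 4.32 and 3.91 in males 8 and 9, and -0.08 for the library labelled male 5. Taken relative to the fast muscle median in the same fish, that mean lay between -0.18 and 0.67 in the females, with males 8 and 9 at 0.54 and 0.50 and the library labelled male 5 at 0.11. On that relative scale the groups overlapped, and the difference was -0.36 in place of -2.44 (a description chosen after the values were seen). Relative to the slow muscle median, the mean lay between 0.95 and 2.51 in the females. Males 8 and 9 were then at 1.19 and 1.31 and the library labelled male 5 at 0.32. The groups overlapped there too, and the difference had the opposite sign, at 0.36. The RNA came from whole animals, so a smaller share of muscle in the RNA and less of these transcripts per muscle cell cannot be told apart.

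Egg genes differed in the same direction as the other 3 isoforms. All 18 tested genes of the egg coat and the oocyte were higher in females than in males 8 and 9 (19.3% of all genes were). The library labelled male 5 was left out on zp2.1 and zp3b, which are among the 18, so this count is no separate evidence. For zp3 male 9 had no value and for zpcx male 8 had none, so each of these comparisons rests on 1 male. Over all 7 fish 0 of the 18 passed, as 0 of all probes did. Their median log2 ratio ran from -0.63 to 0.33 in the 4 females, with males 8 and 9 at -5.17 and -4.19 and the library labelled male 5 at 0.47. The mean of cox7a2a, cox6a1 and cox5ba was 0.38, -0.11, 0.51 and -0.11 in females 4, 7, 8 and 9, -1.09 and -1.05 in males 8 and 9, and 0.47 for the library labelled male 5. The oocyte genes and the 3 isoforms thus had the same fish at the bottom, while the egg gene difference was several times larger. All 4 females were above males 8 and 9 for 30.8% of all genes. The isoforms were picked on this contrast, so no link to the egg genes is read from it. In males 8 and 9, 8 of 9 testis genes were higher, as were 3 of 7 liver genes, where 11.7% of all genes were. The testis genes amh, dmrt1, inha and tekt1 were well above background in Cy5 on 4 arrays, 2 of them of females. Ropn1l was so on 3 arrays, 1 of them of a female. These genes met the filter of 3 arrays only through males, so the testis count is partly fixed by the filter. The testis median log2 ratio was 2.13 and 2.22 in males 8 and 9, and the liver median 3.93 and 2.98. The females ran from 0.07 to 0.49 and from 0.55 to 2.54, and the library labelled male 5 was at 0.12 and 0.8. Over all 7 fish 0 testis and 0 liver genes passed. These lists too were chosen with earlier results known, so their counts are a description, and they too are given for loess values only. The part of the ovary, testis and liver in the isoform values was not tested.

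**Figure D3:**
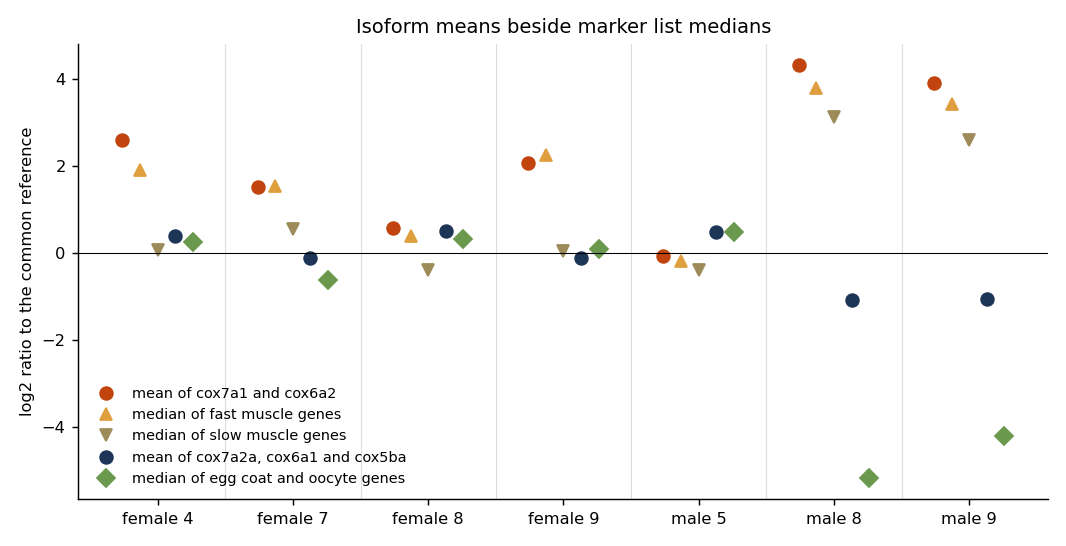
Log2 ratio to the common reference (y axis) in each fish (x axis) for the mean of the 2 muscle isoforms, the mean of the 3 other isoforms, and the medians of fast muscle, slow muscle, and egg coat and oocyte genes. Each point is 1 fish, with no error bar. The muscle isoform mean lies within 0.67 of the fast muscle median in all 7 fish, and the egg gene median falls to -5.17 and -4.19 in males 8 and 9.

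The remaining subunits of complex IV were examined to place the 5 isoform genes within the enzyme. Of 8 other subunit genes tested, 1 stood higher in males 8 and 9 and 0 in females, against the 11.7% and 19.3% of all genes given above, and 0 passed over all 7 fish, where 0% of probes did and none of these 8 had an unadjusted p under 0.05. The 8 differences ran from -1.36 to -0.07 with a median of -0.49 (all genes: 0.06), and 5 of them changed sign when arrays were centred on the median in place of loess. None of the 8 therefore showed a difference toward females like that of cox7a2a, cox6a1 and cox5ba with loess values, and none reached the size of cox7a1 or cox6a2 in those values. With processed signals cox6b1 (-2.63) lay beyond cox6a2 (-2.18) and near cox7a1 (-2.67).

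Cox4i1, the ubiquitous form of the subunit that binds ATP in mammals, was the gene that passed. Its log2 ratio ran from -0.25 to 0.42 in the females, with males 8 and 9 at 1.42 and 0.95 and the library labelled male 5 at -0.06, a difference of -1.11 ± 0.24 (SE, adjusted p = 0.0203, from 0.0142 to 0.97 under the alternatives). With the scan session as a block its adjusted p was 0.0945, and without male 8 it was 0.109. Its relative cox4i2, known in mammals as the form induced by low oxygen, was at -0.39 ± 0.20 (adjusted p = 0.207, from 0.0359 to 0.763 under the alternatives). It passed with processed signals (-1.97, adjusted p = 0.0425) and in the deposited values (-2.0, 0.0359). Its Cy5 signal was not well above background in females 4 and 8 and the library labelled male 5, so its size there is poorly measured.

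Cox6b1, a subunit of the intermembrane space side, was at -1.36 ± 0.53 (SE, adjusted p = 0.109, from 0.0154 to 0.724 under the alternatives). It passed with processed signals (-2.63, adjusted p = 0.0192) and in the deposited values (-2.66, 0.0154), and was at -0.41 with median centring. Cox6b2 was at -0.56 ± 0.34 (adjusted p = 0.274). Ndufa4a, whose mammalian relative was long counted in complex I and is now placed in complex IV, was at -1.04 ± 0.32 (adjusted p = 0.0552, from 0.0312 to 0.855, passing in 2 of 14 alternatives). Cox5aa (-0.41 ± 0.33, adjusted p = 0.398) and cox7c (-0.34 ± 0.35, 0.51) were closer to 0. Cox7a2l, a relative of the COX7A isoforms that in mammals helps join complexes III and IV, was at -0.07 ± 0.26 (0.859). Its values, from -1.0 to -0.22 in the females, -0.81 in male 8 and -0.35 in male 9, overlapped between the groups, in contrast to cox7a1 and cox7a2a.

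Cox5b2, a further gene of the COX5B kind, was outside the list and was named after its values were seen. Its log2 ratio was 1.91, 1.48, 0.18 and 1.67 in females 4, 7, 8 and 9, 2.90 and 4.26 in males 8 and 9, and 0.43 for the library labelled male 5. Males 8 and 9 were above all females, opposite to cox5ba and on the same side as cox7a1 and cox6a2. The difference was -2.27 ± 0.57 (SE, adjusted p = 0.0318, from 0.0179 to 0.448 under the alternatives), and the adjusted p was 0.0644 when blocked by session and 0.162 without male 9.

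Genes that help to assemble complex IV gave a mixed picture. Of 17 tested, 5 were higher in females (cox17, coa5, sco2, cox11 and surf1, the last 2 named after their values were seen) and 1 was higher in males 8 and 9, again beside 19.3% and 11.7% of all genes, with a median difference of 0.25 (all genes: 0.06). Cox17, a copper chaperone for the enzyme, was higher in females by 1.75 ± 0.46 (SE, adjusted p = 0.0346, from 0.0114 to 0.184 under the alternatives), and coa5 by 1.52 ± 0.33 (adjusted p = 0.0205, or 0.055 blocked by session, range 0.0114 to 0.0998). Sco2, which delivers copper, was higher by 0.85 ± 0.24 (adjusted p = 0.0456, or 0.251 blocked by session, range 0.0115 to 0.251). Fam162a, higher in males 8 and 9 at -1.35 ± 0.19 (adjusted p = 0.00468, from 0.00324 to 0.962 under the alternatives), is known in humans as a mitochondrial protein induced by low oxygen and is no assembly factor in the strict sense. In this comparison 2738 of all 8845 genes passed in 1 direction or the other. Over subunits and assembly genes together, 7 of 25 passed, against 4 without female 7, 4 without female 9, 1 without male 8 and 2 when blocked by session.

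**Figure D4:**
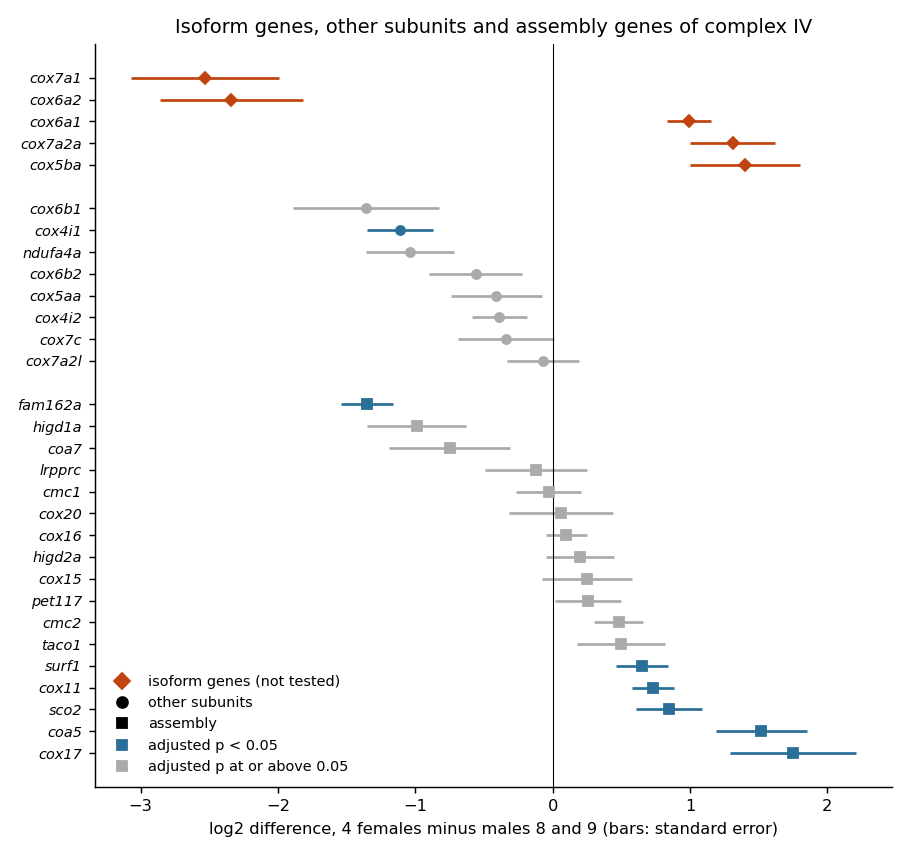
Log2 difference, 4 females minus males 8 and 9 (x axis), for the 5 isoform genes (diamonds), 8 other subunit genes (circles) and 17 assembly genes (squares) of complex IV (y axis), with bars of 1 standard error from the limma fit. Blue marks an adjusted p under 0.05. The muscle isoforms lie at -2.53 and -2.34, the 3 other isoforms between 0.99 and 1.40, and the other subunits between -1.36 and -0.07.

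Among 5272 other genes whose Cy5 signal was well above background on every array, the 5 with the profile most like the mean of cox7a1 and cox6a2 over the 7 fish were ndufb5, rbp4, tnnc2.2, cfl2 and mybpc2b (Pearson's r from 0.984 to 0.991, as a description). Ndufb5 encodes a subunit of complex I, rbp4 a retinol carrier of the blood, tnnc2.2 a troponin C of fast muscle, cfl2 the cofilin of muscle and mybpc2b a myosin-binding protein of fast muscle. Ndufb5, rbp4 and tnnc2.2 each had the same order of fish as that mean (Spearman's rho 1). Ndufb5 had it on a narrower scale, from -0.53 in the library labelled male 5 to 1.00 in male 8.

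The 5 most like the mean of cox7a2a, cox6a1 and cox5ba were nuf2, rbm48, marc1, ddx19b and hnrnpub (Pearson's r from 0.997 to 0.998, and from 0.982 to 0.998 without males 8 and 9). Nuf2 is part of the kinetochore, ddx19b is a helicase of mRNA export, and rbm48 and hnrnpub bind RNA. Ddx19b fell on both sides of the reference, from -2.14 in males 8 and 9 to 1.24 in female 8. Which 5 genes came first depended on the processing and on the fish included. With processed signals, median centring and the deposited values, 0, 1 and 1 of the muscle set came first again. For the other set these counts were 1, 0 and 1. The mean over probes kept 4 and 2. Leaving out 1 fish kept 0 to 4 of the muscle set (0 without female 4) and 1 to 4 of the other set. Other probe filters kept all 5 of each set, but there too only genes well above background on every array were ranked.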

How the data were processed

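Per the file headers, the authors read the arrays (design 019161) in Feature Extraction 10.5.1.1 of Agilent, under protocol GE2_105_Jan09_2. Deposited scanner files hold each spot's intensity per channel on a linear scale with its local background, and processed intensities after the software's own background and dye correction. Log10 ratios make up the deposited value table, and all of them equalled the scanner's log10 ratio of Cy5 over Cy3, so scale, centring and direction are those of the scanner software, and each column's median was 0. Labels give Cy5 for the fish and Cy3 for the reference on every array, with no dye swap. The labelling protocol in the labels describes DNA, so how RNA was labelled is not given in the sources used here.

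The mean signals named in the planned design were not used here, since the columns hold median signals. From these, background was corrected by normexp (offset 50) and each array was normalized by a loess fit without the 1417 control spots. After normalization, 98 outlier spots, counted over all arrays together, were left out. Probes well above background in Cy5 on at least 3 arrays were tested with limma 3.58.1 in R 4.3.3, as a two-sided test of female minus male, adjusted by Benjamini-Hochberg over 22705 probes. P-values measure the spread between fish, with 1 array each, and the number of arrays limits the precision. With the session blocked and male 5 left out, each session holds at most 1 male, so those p-values include no spread between males. They rest on the spread between females of the same session. Names came from RefSeq accessions in a gene table of GRCz12tu (16568 probes, 38.0%). The array was designed on danRer6, so no coordinates are given. A gene's value is that of its brightest tested probe, and levels of different probes were not compared. The fit was tested on simulated data.

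The named genes are the isoform genes, all tested subunit genes of a list, the 4 assembly genes with the largest differences among those that passed, checks of egg coat (zp2.1, zp3b), testis (amh, dmrt1) and muscle, and the 5 genes most correlated with each isoform mean. Members and lists were chosen with earlier results of these data known. The testis genes amh (-0.93 ± 0.23, SE, adjusted p = 0.0294) and dmrt1 (-0.69 ± 0.24, adjusted p = 0.0846) served as checks of males 8 and 9. The amh call held in 6 of 13 alternatives (adjusted p 0.0101 to 0.09), with values from -0.55 without male 9 to -3.40 in the deposited values, and dmrt1 passed in 1 of 13 (0.0378 with the session blocked, range 0.0378 to 0.366). Both genes were not well above background in females 4 and 8 and the library labelled male 5. They reached the 3 arrays needed for a test only with males 8 and 9, which limits them as checks. Alternatives were processed signals, median centring, the deposited value table, other probe filters, the mean over probes, the scan session and the fish number as blocks, and leaving out each fish.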

Additional observations from a re-analysis of the deposited data

How the results depend on the processing

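The isoform differences within a fish kept their sign under every alternative run: without male 5, cox7a1 minus cox7a2a ran from -4.15 to -3.35 and cox6a2 minus cox6a1 from -3.71 to -2.96 over the settings, and from -4.12 to -3.35 and from -3.74 to -2.93 when 1 fish was left out. Over all 7 fish, leaving out 1 fish gave -3.84 to -0.79 and -3.34 to -0.62, and the scan session as a block gave -0.85 and -0.62. That block combines sessions of opposite sign. Session 1 gave -3.35 and -2.96, and session 3, with the library labelled male 5 as its only male, gave 1.65 and 1.71. Single genes depended more on the normalization. Without male 5, median centring in place of loess moved the median female minus male difference over the tested probes from -0.05 to 0.24. It gave differences of -1.11 for cox7a1, -1.02 for cox6a2, 2.51 for cox7a2a, 2.31 for cox6a1 and 2.44 for cox5ba. Over all 7 fish it turned cox6a2 to 0.02. Without male 5 it also turned cox5aa (0.81), cox6b2 (0.35), cox7a2l (1.22), cox7c (0.50), ndufa4a (0.20) and fam162a (0.05). Cox7a2l turned to 0.18 with processed signals, to 0.15 in the deposited values and 0.07 with the replicate block, and lay between -0.30 and 0.15 with 1 fish left out, as cox5aa lay between -0.88 and 0.06.

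By limma, 0 probes passed over all 7 fish (1525 at an unadjusted p under 0.05), and 0 under each alternative that kept all fish except the replicate block. Without male 5, 5757 passed (2999 higher in females, 2758 higher in males), against 9159 with processed signals (5060 and 4099), 9506 in the deposited values (5071 and 4435) and 706 with median centring (676 and 30). Leaving out a fish gave 0 to 5757 probes over all 7, the highest without male 5, and 3432 (without male 8) to 4804 after male 5 was dropped. Of the other complex IV genes 7 passed, against 1 with median centring, 4 with no filter, 2 with the session block, and 1 to 6 with a fish left out. The cause of these shifts was not tested.

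Females and males share the fish numbers 8 and 9, which the labels do not tie to a common origin. Deviations from the group means correlated at -0.179 for number 8 and 0.428 for number 9. For unlike numbers they correlated at -0.618 (female 8 with male 9) and 0.0767 (female 9 with male 8). Female 9 and male 9 also shared scan session 1, and the male mean included the library labelled male 5. No tie by number is therefore read from these values. A replicate block on the number uses the 4 fish numbered 8 and 9 alone, and so drops male 5 by construction. The spread behind its p-values is how far the difference within number 8 departs from that within number 9. The replicate block thus gives little precision. This block called 4084 probes with and without male 5 and 4 complex IV genes, put cox6b1 past the threshold (-1.64, adjusted p = 0.0287, range 0.0154 to 0.724), and gave -4.15 and -3.71 for the isoform differences in both comparisons.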

Other observations

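For 28 quantities, namely the 5 isoform genes, 3 differences between them and 20 other named genes, no female stood apart from the other 3 by Dixon's criterion.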
